A study of Mus musculus with 30 samples.

Results

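Red cell and heme genes were followed in the lung of mice kept in 10% oxygen. They are 9 of the 15964 genes that the annotation gives a probe set of their own: Hba-a1, Alas2, Slc4a1, Bpgm, Rhag, Epb42, Klf1, Gata1 and Ank1. Every probe set annotated to exactly 1 of them was taken, which gave 18 of the 36701 probe sets of the arrays, 13 on the A type, 1 on B and 4 on C. Of these 18, 14 passed the filter on dim signals and were tested, and each of the 9 genes kept at least 1 probe set.

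The RNA came from whole lung and was hybridised to Affymetrix MG-U74 version 2 arrays, whose A, B and C types hold different probe sets (groups of short probes to 1 transcript). The groups were Norm, for which the titles state no oxygen level or time, and 10 h, 2 d, 4 d and 6 d in a chamber at 10% oxygen, with 2 samples each (1a and 1b). The description of the Norm arrays speaks of a mild rejection, a term of transplantation, whereas their titles say Norm; the titles were followed. The labels give no strain, sex, age or genotype, and leave unsaid whether 1a and 1b are different animals. The p-values therefore cover only how far these samples differ, which may be technical.

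Red cells carry oxygen on hemoglobin, whose globin chains each hold a heme, an iron-bearing ring. Heme synthesis in developing red cells begins with the enzyme Alas2, and the transcription factors Gata1 and Klf1 switch on globin, heme and membrane genes. The mature cell has a membrane skeleton tied to the anion exchanger Slc4a1 by ankyrin (Ank1) and the protein of Epb42, and it tunes the oxygen affinity of hemoglobin with the product of Bpgm. Low oxygen is known to raise erythropoietin and with it the output of young red cells, which still hold RNA when they enter the blood. A lung sample holds the blood in its vessels, and in such a bulk sample more red cells and more RNA per red cell cannot be told apart.

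The groups differed in more than time. For Gapdh the signal at the 3' end over that at the 5' end, which grows as RNA breaks down, was 3.64 to 4.60 on the 6 arrays at 2 d, 1.40 to 1.68 on the 6 arrays at 6 d and 0.786 to 1.51 on the 17 arrays of Norm, 10 h and 4 d. For Actb these ranges were 3.64 to 4.98, 0.474 to 1.66 and 0.0272 to 0.926. The Norm samples differed in the Actb ratio: 1b read 0.644 on A, 0.775 on B and 0.926 on C, and 1a read 0.0453 on B and 0.104 on C. Other labels gave unlike Actb ratios by array type: 10 h 1b 0.517 (A), 0.0430 (B) and 0.0581 (C), 4 d 1a 0.613, 0.0272 and 0.157. Those of 10 h 1a lay closer together (0.0522 to 0.105), and those of 2 d stayed at 3.64 to 4.98. A low Actb ratio is thus no reading of the RNA of a sample alone. The source of the difference between the Norm samples was not tested. Arrays of 2 d and 6 d were deposited as a run of their own, apart from Norm, 10 h and 4 d. The A arrays of Norm, 10 h and 4 d were also deposited apart from the B and C arrays of these groups. In 2 d or 6 d against Norm the run and the time can therefore not be told apart, nor in 2 d or 6 d against 10 h or 4 d. The A arrays hold 1 usable Norm array (1b), which is assumed to vary as the other groups did. Across genes with probe sets on both types, 3 of the 9 A arrays matched best, on B and likewise on C, an array outside their own group. They were Norm 1b, 4 d 1a and 6 d 1b, and the Norm 1b array matched 4 d 1a best on both (r = 0.165 on B over 1303 genes and 0.165 on C over 1322 genes, against 0.00446 and 0.0514 with its own label). The part of these differences in the values below was not tested.

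The mean log2 level was highest at 2 d for 11 of the 14 tested probe sets, with Slc4a1, Hba-a1, Bpgm and Rhag furthest above Norm, but none of the 14 passed the adjusted test (threshold 0.05) in any of the 8 comparisons. At 2 d, 13 of the 14 tested probe sets lay above Norm and 1 below, with a median log2 difference of 0.69, whereas over all 25801 probe sets tested 49.7% lay above and the median was 0. By limma with Benjamini-Hochberg adjustment 0 of the 14 passed at 2 d (smallest adjusted p = 0.0562), where 1.86% of all probe sets did. At an unadjusted p under 0.05, 5 of the 14 passed, against 18.9% of all probe sets. By the F test over the 4 times against Norm, 0 of the 14 passed (smallest adjusted p = 0.0548), against 1.24% of all, and 8 had an unadjusted p under 0.05, against 19.6% of all. Several of these probe sets belong to the same gene, so they are not separate observations. The genes were also chosen with earlier results of these data known, so their shares beside those of all probe sets are a description only. All intensities below are array signals on a linear scale, and all differences are on a log2 scale with the SE of the limma fit.

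**Figure D1:**
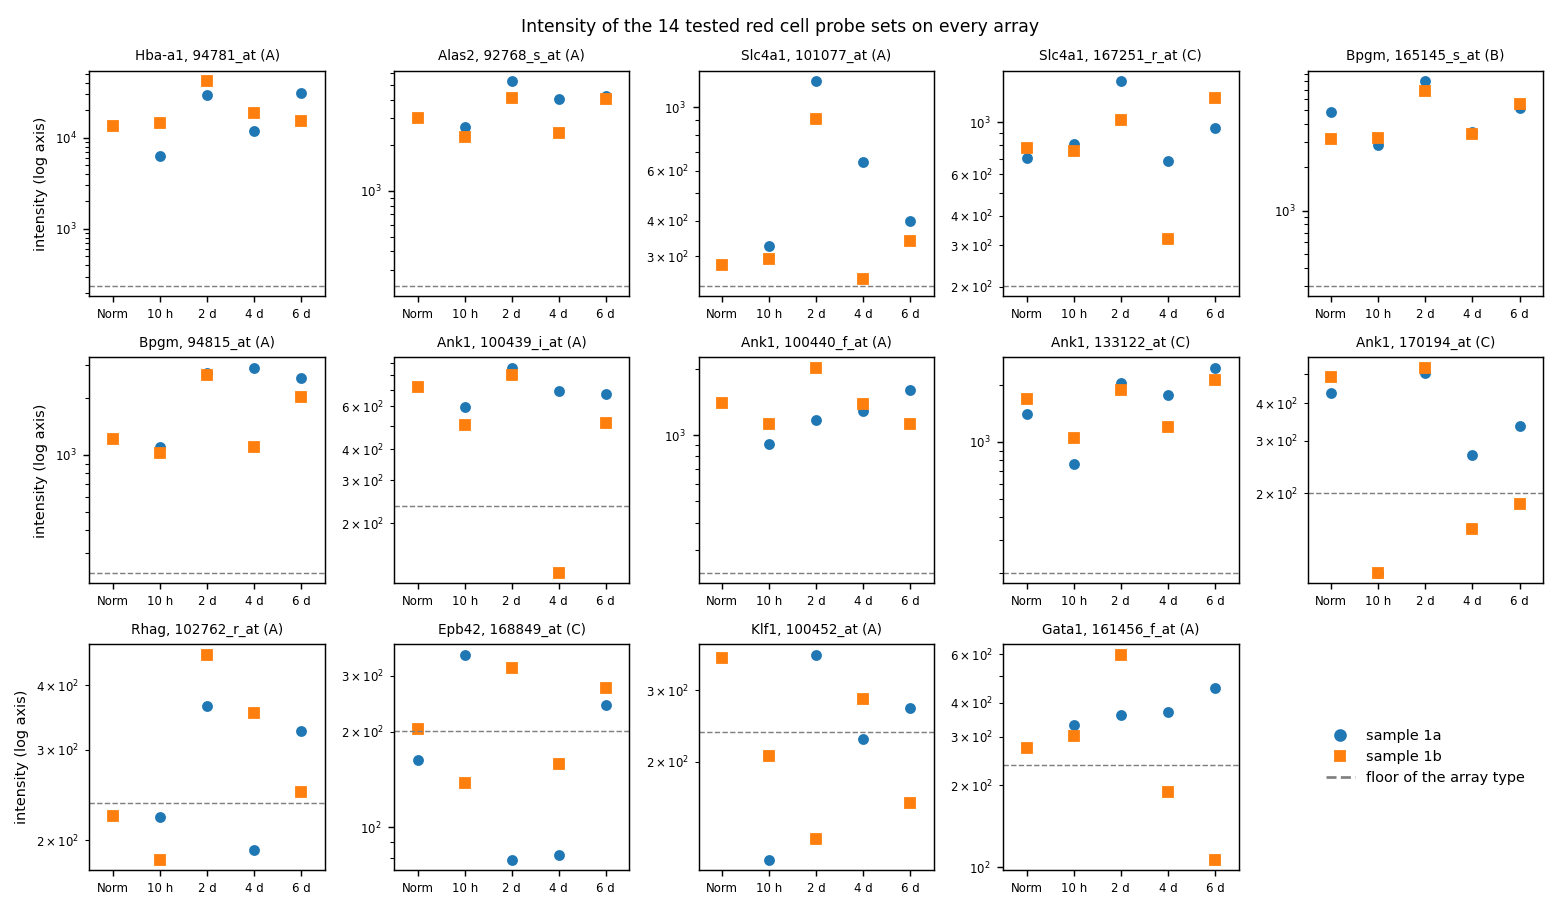
Intensity of each of the 14 tested probe sets (log axis) on every array, from Norm through 10 h, 2 d, 4 d and 6 d; circles are samples 1a, squares are samples 1b, and the dashed line is the floor below which a signal counts as dim, at 236.05 for A, 297.36 for B and 200.93 for C arrays. The 2 d points of Slc4a1 on A and Bpgm on B stand above all others of their panels, whereas Klf1 and Epb42 scatter around the floor.

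Hba-a1 encodes an alpha globin chain. Its probe set 94781_at (A) read 13306 on the Norm array, 6332 and 14435 at 10 h, 29409 and 42018 at 2 d, 11868 and 18865 at 4 d, and 31252 and 15094 at 6 d (1a, then 1b). Both 2 d arrays lay above the Norm array, but the 6 d 1a array lay between them, so that 2 d and 6 d overlapped. The mean log2 level was 15.10 ± 0.36 (SD, n = 2) at 2 d and 13.70 on the Norm array, a difference of 1.40 ± 0.60 SE or 2.64-fold (limma, adjusted p = 0.255). With quantile normalization, which gives every array the same distribution, the difference was 0.85 (adjusted p = 0.432). The brightest probe set of an array, whichever it was, was also higher at 2 d: it read 40213 and 45948 on the 2 d arrays of type A and 23383 on the Norm array. It was lowest, at 14170, on the 10 h 1a array, which also gave the lowest Hba-a1 signal. A second alpha globin gene, Hba-a2, is nearly identical in sequence, so the probe set may read both.

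Alas2 makes the first and rate-limiting step of heme synthesis in red cell precursors. Probe set 92768_s_at (A) read 3005 on the Norm array, 2622 and 2252 at 10 h, 5307 and 4099 at 2 d, 4023 and 2425 at 4 d, and 4197 and 4005 at 6 d. The lowest signals were those of the 10 h pair and of 4 d 1b, and the 2 d pair overlapped with the 6 d pair. At 2 d the level stood 0.63 ± 0.30 SE above Norm (1.55-fold, adjusted p = 0.297). The enzyme of the same step in other tissues, Alas1, had a difference of -0.34 ± 0.19 SE at 2 d (adjusted p = 0.389).

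Slc4a1, the anion exchanger band 3 that moves chloride and bicarbonate across the red cell membrane, had the largest difference among the members at 2 d. On probe set 101077_at (A) it read 280 on the Norm array, 325 and 295 at 10 h, 1239 and 910 at 2 d, 643 and 249 at 4 d, and 400 and 339 at 6 d. Both 2 d arrays lay above every other array. The difference of 2 d from Norm was 1.92 ± 0.52 SE (3.79-fold, adjusted p = 0.0944). At 6 d the level was lower than at 2 d by a log2 difference of -1.53 ± 0.42 SE (adjusted p = 0.180), a comparison within 1 run of deposit that uses no Norm array.

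The second probe set of Slc4a1, 167251_r_at on C, had both Norm arrays. It read 706 and 780 in Norm, 810 and 751 at 10 h, 1499 and 1026 at 2 d, 686 and 318 at 4 d, and 945 and 1272 at 6 d. Here 2 d lay above Norm on both arrays but overlapped with 6 d, with a difference from Norm of 0.74 ± 0.40 SE (adjusted p = 0.364). On both array types the 4 d 1b sample gave the lowest signal.

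Bpgm makes 2,3-bisphosphoglycerate, which lowers the affinity of hemoglobin for oxygen. Its probe set 165145_s_at on B, where both Norm arrays were usable, came closest to the threshold of all members. It read 4873 and 3141 in Norm, 2849 and 3199 at 10 h, 8043 and 6880 at 2 d, 3542 and 3436 at 4 d, and 5221 and 5564 at 6 d. The 2 d pair lay above every other array and the 6 d pair above all but the 2 d pair. The difference of 2 d from Norm was 0.93 ± 0.21 SE (1.90-fold, adjusted p = 0.0562). Without Norm 1a the difference was 1.24 (adjusted p = 0.0286), and without Norm 1b it was 0.61 (adjusted p = 0.0974). The level at 6 d was below that at 2 d by a log2 difference of -0.46 ± 0.21 SE (adjusted p = 0.381).

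On A, Bpgm (94815_at) read 1209 on the Norm array, 1104 and 1027 at 10 h, 2714 and 2658 at 2 d, 2907 and 1101 at 4 d, and 2553 and 2028 at 6 d. The pair at 2 d differed by little, while the 4 d pair held the highest of all 9 values and one of the lowest. The B probe set gave the same 2 samples at 4 d nearly equal signals. The difference of 2 d from Norm on A was 1.15 ± 0.46 SE (2.22-fold, adjusted p = 0.225).

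The promoters of these genes are shown because Gata1 and Klf1, members themselves, are known to bind such sequences in erythroid genes. RefSeq windows (GRCm38.p6) of 250 bases before the start site were found for 7 of the 9 genes, Slc4a1 and Ank1 being the others. They were searched on both strands for the letters AGATAA, for TGATAA, for AGATAG and for TGATAG, each counted as a GATA match, and for the letters CCACCC. Capitals mark the matches in the windows of 3 genes that hold both kinds, and the window of Bpgm, which holds neither, is given for contrast. Hba-a1 is at chr11:32283422-32283671 (+ strand), Alas2 at chrX:150547167-150547416 (+), Rhag at chr17:40810899-40811148 (+) and Bpgm at chr6:34476106-34476355 (+).
Hba-a1: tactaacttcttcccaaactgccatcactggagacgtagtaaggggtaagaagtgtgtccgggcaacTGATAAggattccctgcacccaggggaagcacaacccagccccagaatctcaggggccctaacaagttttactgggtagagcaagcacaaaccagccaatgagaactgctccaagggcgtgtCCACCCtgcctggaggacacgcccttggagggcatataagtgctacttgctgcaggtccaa
Alas2: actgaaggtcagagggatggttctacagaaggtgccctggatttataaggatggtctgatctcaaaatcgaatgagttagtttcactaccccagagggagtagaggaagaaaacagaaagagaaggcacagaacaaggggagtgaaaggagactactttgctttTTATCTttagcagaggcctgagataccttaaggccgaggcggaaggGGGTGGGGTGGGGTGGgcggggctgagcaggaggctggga
Rhag: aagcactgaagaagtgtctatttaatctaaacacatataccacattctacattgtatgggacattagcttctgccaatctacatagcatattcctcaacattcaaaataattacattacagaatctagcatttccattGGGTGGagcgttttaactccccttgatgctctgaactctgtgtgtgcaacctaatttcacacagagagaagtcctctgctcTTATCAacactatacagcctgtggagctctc
Bpgm: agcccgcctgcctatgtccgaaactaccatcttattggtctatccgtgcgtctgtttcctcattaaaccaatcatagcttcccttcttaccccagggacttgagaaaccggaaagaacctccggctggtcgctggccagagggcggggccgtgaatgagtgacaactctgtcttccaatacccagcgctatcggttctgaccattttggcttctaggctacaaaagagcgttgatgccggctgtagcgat
A GATA match stands 183 bases before the start site in Hba-a1, 86 in Alas2 and 31 in Rhag, counted from its leftmost base. Those of Alas2 and Rhag are on the other strand. The CCACCC match begins 61 bases before the start in Hba-a1 and, on the other strand, 112 in Rhag. Alas2 has 3 CCACCC matches, beginning 40, 35 and 30 bases before the start, also on the other strand, each overlapping the next by 1 base. Over the 7 windows, 5 held a GATA match, 4 a CCACCC match and 3 both. Among all 32851 mouse windows of this length, 26.5% held a GATA match, 28.1% a CCACCC match and 5.80% both. A match is a run of letters and not a measured binding site.

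Rhag, an ammonia channel and partner of the Rh antigens, was near the floor of the A arrays. Probe set 102762_r_at read 223 on the Norm array, 222 and 183 at 10 h, 365 and 459 at 2 d, 191 and 354 at 4 d, and 326 and 248 at 6 d. It passed the floor of 236.05 on 5 of 9 arrays, among them both at 2 d and both at 6 d, and on neither the Norm nor the 10 h arrays. Both 2 d arrays lay above all others. With Norm at the floor, the 2 d level was at least 1.73-fold higher (0.79 ± 0.30 SE on the log2 scale, adjusted p = 0.207).

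Ank1 links the spectrin skeleton to the membrane, and a short form of it is made in skeletal muscle. Its 4 tested probe sets gave unlike patterns. On C, 133122_at read 1407 and 1693 in Norm, 761 and 1049 at 10 h, 2067 and 1884 at 2 d, 1775 and 1205 at 4 d, and 2480 and 2138 at 6 d. Both 10 h arrays were the lowest of the 10 and both 6 d arrays the highest. The differences from Norm were -0.79 ± 0.25 SE at 10 h (adjusted p = 0.623) and 0.58 ± 0.25 SE at 6 d (adjusted p = 0.540). The difference of 4 d from 10 h was 0.71 ± 0.25 SE (adjusted p = 0.498).

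The other C probe set of Ank1, 170194_at, read 433 and 487 in Norm, 109 and 109 at 10 h, 502 and 525 at 2 d, 267 and 152 at 4 d, and 335 and 184 at 6 d. Norm and 2 d were the high groups, and both 10 h arrays lay below the floor of 200.93. At 10 h the level was at least 2.29-fold lower than in Norm (adjusted p = 0.538). At 4 d it differed from Norm by -0.99 ± 0.34 SE (adjusted p = 0.699) and at 6 d by -0.82 ± 0.34 SE (adjusted p = 0.499), and 6 d differed from 2 d by -0.98 ± 0.34 SE (adjusted p = 0.255). At 6 d the 2 C probe sets of this gene thus pointed in opposite directions. On A, 100439_i_at and 100440_f_at differed from Norm at 2 d by 0.20 ± 0.56 SE and 0.14 ± 0.35 SE. The ranges over the 9 arrays were 126 to 858 and 910 to 2025, and 100441_s_at stayed below the floor on all 9.

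Epb42, which braces the membrane skeleton, was at the limit of detection. Its 2 probe sets on A read at most 62.7 and 79.9 and never passed the floor. On C, 168849_at read 163 and 204 in Norm, 350 and 138 at 10 h, 79 and 317 at 2 d, 82 and 158 at 4 d, and 243 and 275 at 6 d. The pairs at 10 h and at 2 d each spanned most of the range, and only the 6 d pair lay above the floor as a pair. The difference of 2 d from Norm was 0.32 ± 0.29 SE (adjusted p = 0.606).

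The 2 transcription factors were also dim. Klf1, the erythroid Krüppel-like factor, read 360 on the Norm array, 115 and 207 at 10 h, 366 and 129 at 2 d, 227 and 285 at 4 d, and 272 and 159 at 6 d (100452_at, A). It was the 1 tested probe set that lay below Norm at 2 d, at -0.29 ± 0.28 SE (adjusted p = 0.622), and its 2 d arrays stood on either side of the floor. Gata1, which is also made by megakaryocytes, mast cells and eosinophils, read 273 on the Norm array, 333 and 303 at 10 h, 361 and 599 at 2 d, 369 and 189 at 4 d, and 452 and 107 at 6 d (161456_f_at, A). Its 6 d pair spanned more than its difference of 2 d from Norm, 0.77 ± 0.47 SE (adjusted p = 0.421). Its other probe set, 102654_at, passed the floor on 1 array only, 4 d 1b, at 371.

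**Figure D2:**
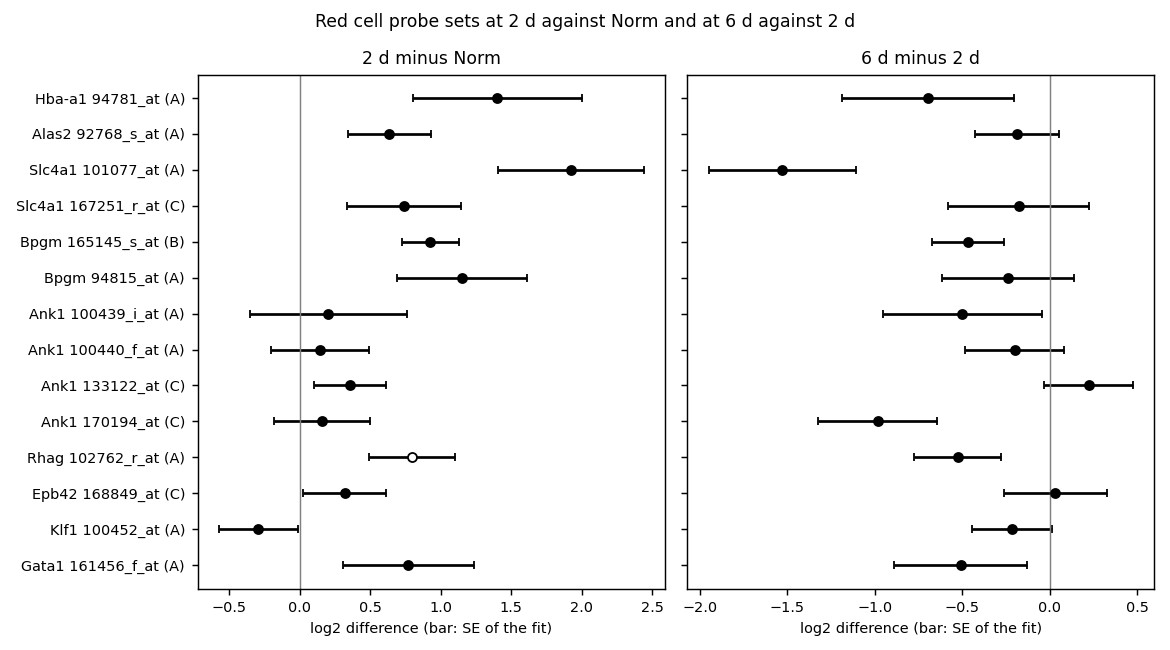
Log2 difference of each tested probe set with the SE of the fit as bar, for 2 d minus Norm (left) and 6 d minus 2 d (right); the open circle has its second group at the floor and is a lower bound. On the left 13 of 14 points lie right of 0 and on the right 12 of 14 lie left of it, and the longest distances belong to Slc4a1 on A.

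The other comparisons gave no call either. At 10 h, 9 of the 14 probe sets lay below Norm and 4 above, with a median of -0.34 (Rhag was at the floor in both groups). Of them 0 passed, as did 0% of all probe sets, and 2 had an unadjusted p under 0.05, against 6.11% of all. At 4 d, 8 lay below and 6 above (median -0.04); 0 passed, against 0.00775% of all, and 1 had an unadjusted p under 0.05, against 6.13%. At 6 d, 10 lay above and 4 below (median 0.37); 0 passed, as did 0% of all, and 2 had an unadjusted p under 0.05, against 9.17%. These comparisons share their Norm arrays and are not independent of each other.

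Over the 4 times together against Norm, 10 lay above and 4 below (median 0.21; 0 passed, as did 0% of all; 1 at an unadjusted p under 0.05, against 7.79%). Later times (4 d and 6 d) against earlier ones (10 h and 2 d) gave 4 above and 10 below (median -0.12; 0 passed, against 0.0155% of all; 1 at an unadjusted p under 0.05, against 11.0%). Within runs of deposit, 4 d against 10 h gave 10 above and 4 below (median 0.25; 0 passed, against 0.0233%; 1 at an unadjusted p under 0.05, against 8.08%). There 6 d against 2 d gave 2 above and 12 below (median -0.35; 0 passed, against 0.0620%; 3 at an unadjusted p under 0.05, against 13.0%).

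A comparison of 2 d with the mean of the 3 other times in low oxygen was chosen after the 2 d values had been seen, and uses no Norm array. In it 3 of the 14 passed, against 5.66% of all probe sets: Bpgm on B (0.95 ± 0.17 SE, limma adjusted p = 0.0186), Slc4a1 on A (1.57 ± 0.34 SE, adjusted p = 0.0386) and Ank1 170194_at (1.16 ± 0.28 SE, adjusted p = 0.0454). All 14 lay higher at 2 d than in the mean of the 3 other times, by a median of 0.66. Of them 8 had an unadjusted p under 0.05, against 22.9% of all probe sets. On 5 probe sets (Slc4a1 on A, Bpgm on B, Rhag, and 100439_i_at and 170194_at of Ank1) both 2 d arrays lay above every other array of the type, which held for 10.1% of all probe sets tested. The calls rested on few samples: 0 of the 14 passed without either 2 d sample, without either 6 d sample or without 10 h 1a, and 1 passed without 10 h 1b. The Ank1 call was also lost under several changes of processing. The Slc4a1 call was lost with no filter on dim probe sets (limma adjusted p = 0.0719) and with adjustment within an array type (0.0582). The 2 d arrays are those with the raised 3' to 5' ratio, and its part was not tested.

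Among themselves the members on A followed each other unevenly over the 9 arrays, which share their scaling, and 4 of these 9 stood at the floor for Rhag. Pearson's r, given as a description, was 0.94 between Alas2 and Bpgm, 0.86 between Hba-a1 and Rhag, 0.81 between Alas2 and Slc4a1 and 0.80 between Slc4a1 and Bpgm. It was 0.57 between Hba-a1 and Alas2 and between -0.19 and 0.24 for Klf1 with Hba-a1, Alas2, Slc4a1, Bpgm, Rhag and Gata1. Klf1 passed the floor on only 4 of the 9 arrays and was tied at the floor on the rest, which limits its r. Genes most like a member over the same arrays were looked for among those whose level ranged over at least 1 log2 unit. For Alas2 they were Mest (r = 0.95), Bpgm and the clock gene Arntl (0.94 each), for Slc4a1 they were Hnrnpm (0.95), Saa3 (0.95) and Col8a1 (0.93), and for Bpgm they were Clca1 (0.96), Vegfc (0.95) and Alas2 (0.94). For Hba-a1 they were Scd1 (0.98), the airway secretory gene Scgb1a1 (0.96) and Rpl41 (0.95). For Rhag they were Selenos (0.95), Dhrs7b (0.94) and Il27ra (0.93), and for Ank1, over 10 arrays, Smox (0.94), Mzt2 (0.91) and Dapl1 (0.89). They were D2hgdh (0.96), Esrp2 (0.88) and Dao (0.88) for Gata1, Efna1 (0.87), Spib (0.84) and Krtdap (0.82) for Klf1, and Tmem249 (0.91), Slc25a13 (0.91) and Cxxc4 (0.86) for Epb42. The Epb42 probe set used here passed the floor on 5 of 10 C arrays, so its likeness has the same limit as that of Klf1.

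Other genes of red cells and iron were counted from 7 lists, with 1 probe set per gene. Of 9 globins and their chaperone 3 were tested; all lay above Norm at 2 d (median 0.30) and none passed. Hbb-b2, a beta globin with near copies, read 21639 and 23896 at 2 d and 14661 on the Norm array, with a difference of 0.63 ± 0.31 SE (adjusted p = 0.314). Hbb-y, an embryonic globin, differed by 0.16 and Hba-x by 0.30, its Norm array being at the floor. Of 8 further heme synthesis enzymes 6 were tested, 3 above and 3 below at 2 d (median -0.00), and none passed. Besides Alas1, Uros was at 0.52 ± 0.26 SE (adjusted p = 0.319) and Alad at -0.36 ± 0.31 SE (adjusted p = 0.584).

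Iron uptake and storage genes lay above Norm at 2 d in 9 of 10 tested genes (of 12 listed, median 0.23) and none passed. Slc25a37, the mitoferrin that brings iron into mitochondria of red cell precursors, read 5665 and 3315 in Norm, 2929 and 2457 at 10 h, 5783 and 4883 at 2 d, 3532 and 2758 at 4 d, and 2777 and 2953 at 6 d. It was high in Norm 1a and at 2 d, and 6 d was below 2 d by a log2 difference of -0.89 ± 0.25 SE (adjusted p = 0.171). The transferrin receptor Tfrc differed from Norm by 0.77 ± 0.28 SE at 6 d (adjusted p = 0.444), and Steap3, which reduces iron for uptake, by -0.94 ± 0.32 SE at 10 h (adjusted p = 0.663).

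Of 16 further genes of the red cell membrane and skeleton 9 were tested, 5 above and 4 below Norm at 2 d (median 0.10), and none passed; Sptb, a spectrin, was at 0.55 ± 0.31 SE, the water channel Aqp1 at -0.46 and Gypc at -0.36. Of 14 red cell enzymes and maturation genes 10 were tested, 7 above and 3 below (median 0.24), and none passed. Among them catalase (Cat) was at -0.93 ± 0.24 SE (adjusted p = 0.0835), Ube2o, which clears ribosomes in late red cell precursors, at 0.47 ± 0.19 SE (adjusted p = 0.225) and the carbonic anhydrase Car2 at 0.30. Heme breakdown and clearance genes had 6 above and 3 below of 9 (median 0.19) and none passed. Blvra, a biliverdin reductase, was at 0.84 ± 0.29 SE (adjusted p = 0.176), Hmox2 at 0.19 and Hmox1, the inducible heme oxygenase, at 0.07 ± 0.19 SE (adjusted p = 0.891).

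Of 18 erythroid regulators, all tested, 10 lay above and 6 below Norm at 2 d (median 0.05), and 1 passed. It was Cited2, a transcriptional co-regulator known to be induced by low oxygen, which read 1990 on the Norm array, 1475 and 1385 at 10 h, 604 and 603 at 2 d, 1242 and 1915 at 4 d, and 1239 and 1339 at 6 d. It fell by 1.72 ± 0.27 SE on the log2 scale at 2 d against Norm (adjusted p = 0.0249). The adjusted p was 0.235 when only the 2 d and Norm arrays were fitted, and without any 1 of the 10 h, 2 d or 6 d samples it lay between 0.0746 and 0.117. Stat5b differed from Norm by -0.48 at 2 d and 0.66 at 6 d, and Bcl11a, a repressor of fetal globin, by 0.21 at 2 d, with both 6 d arrays at the floor. Erythropoietin itself (Epo) read below the floor of 236.05 on all A arrays but those of 6 d. There it read 244 and 261, close to the floor, and no gene of this list passed at 6 d.

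Markers of other cells differed at 2 d to unequal degrees. Of 12 platelet and megakaryocyte markers 7 were tested, 5 above and 2 below Norm at 2 d (median 0.74), and all 7 lay below 2 d at 6 d (median -0.86). Ppbp, a platelet chemokine, rose by 0.80 ± 0.15 SE at 2 d (3696 and 3858 at 2 d, 2118 and 2223 in Norm, adjusted p = 0.0361). The call was lost with any 1 sample left out (adjusted p 0.0510 to 0.137), under median scaling (0.0568) and with only the 2 d and Norm arrays fitted (0.235). The Ppbp call was lost as well without the variance trend (limma adjusted p = 0.0565) and with the letter (1a or 1b) fitted as a block (0.0620). Itga2b, a platelet integrin, read 296 and 271 at 6 d and 1984 and 1191 at 2 d, a difference of -2.44 ± 0.43 SE for 6 d against 2 d (adjusted p = 0.0844). Gp1bb passed the floor on 3 A arrays, both at 2 d and 4 d 1b. The summed platelet intensity on C (3 genes) was 1988 to 3067 at 2 d and 1664 to 2188 in Norm, on B (2 genes) 4189 to 4599 at 2 d and 2422 to 2511 in Norm, and on A (2 genes) 950 to 1066 at 2 d and 529 on the Norm array. The 2 d and Norm ranges thus overlapped on C, and on A the 4 d 1b array was the highest, at 1613. On B the sums at 10 h (3364 and 4085), 4 d (3768 and 3364) and 6 d (2982 and 2764) also lay above both Norm arrays.

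Lung epithelial and endothelial markers, all 12 tested, lay above Norm at 2 d in 8 genes (median 0.34). Their summed intensity on A (9 genes) was 79445 on the Norm array, 44107 and 79234 at 10 h, 136518 and 147901 at 2 d, 73259 and 72621 at 4 d, and 112792 and 88452 at 6 d. It was highest on the 2 d arrays and lowest on the 10 h 1a array, which also gave the lowest Hba-a1 signal. The genes of this sum differed in sign at 2 d: Sftpc, a surfactant protein, was at 2.46 ± 0.66 SE (adjusted p = 0.0931) and Scgb1a1 at 1.68 ± 0.64 SE (adjusted p = 0.204), whereas Sftpb, also of surfactant, was at -0.84 ± 0.25 SE (adjusted p = 0.121) and the endothelial receptor Tek at -0.70 ± 0.18 SE (adjusted p = 0.0870). On B (2 genes) the sum was 7744 to 8663 at 2 d and 6493 to 10847 in Norm. Skeletal muscle markers, 10 of 12 tested, lay below Norm at 2 d in 7 (median -0.65), of which 2 passed, namely Acta1, which fell by 2.72 ± 0.44 SE (adjusted p = 0.0298), and Myh1, which fell by 1.28 ± 0.22 SE (adjusted p = 0.0321). Both rest on 1 Norm array, and neither passed with only the 2 d and Norm arrays fitted (adjusted p = 0.235 each) or without any 1 of the 10 h, 2 d or 6 d samples. Neither passed with adjustment within an array type, and Acta1 did not pass with no filter on dim probe sets. Myh1, above the floor on 5 of the 9 A arrays, also did not pass with the floor at the 20th percentile or with log2(intensity + 100). It did not pass either with the letter (1a or 1b) fitted as a block. The sum of muscle markers on A (9 genes) was 10181 on the Norm array, 1575 and 1150 at 10 h, 2947 and 3206 at 2 d, 4968 and 8535 at 4 d, and 3269 and 3082 at 6 d. On C, which has both Norm arrays, the 1 muscle gene (Pvalb) read 13720 and 12024 at 2 d and 10719 and 5148 in Norm. At 10 h Pvalb read 9767 and 10772, whereas the sum on A was lowest there, so it did not follow that sum. Neutrophil and marrow granulocyte markers (8 of 12 tested, 4 above and 4 below, median 0.01), mast cell and eosinophil markers (6 of 12, 4 above, median 0.20) and lymphocyte markers (6 of 12, 2 above, median -0.15) had none that passed at 2 d. Their sums on A at 2 d were 6610 to 7675, 5210 to 5388 and 4248 to 4690, against 6752, 5987 and 5268 on the Norm array. The part of these cells in the red cell values was not tested.

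**Figure D3:**
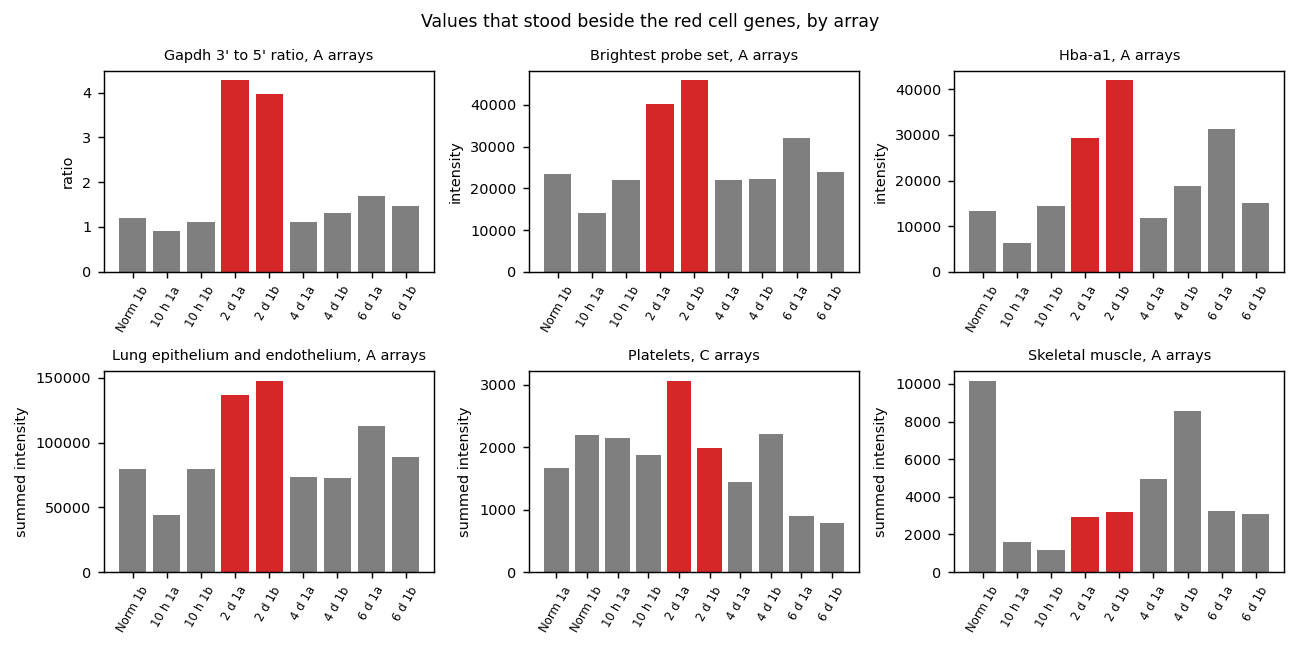
By array, from Norm to 6 d with 2 d in red: the Gapdh 3' to 5' ratio, the brightest probe set, Hba-a1 and the summed intensity of lung markers on A, of platelet markers on C and of skeletal muscle markers on A. The 2 d bars are the tallest for the ratio (4.28 and 3.97), the brightest probe set and the lung markers, and the Norm 1b bar is the tallest for skeletal muscle.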

How the data were processed

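Per the labels, total RNA of whole mouse lung was hybridised to 3 array types. The authors deposited 1 intensity per probe set and array on a linear scale; the software that made them is not given in the sources used here. After 2% of values at each end had been left out, the mean was 800.2 to 800.4 on every array used, so no further scaling was applied. Of 30 arrays, 1 was left out of every test: it is titled A but stands in the B table (Spearman correlation with the B arrays -0.00277 to 0.00963).

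Intensities under the 40th percentile of an array type were set to it and log2 was taken. Probe sets above it on at least 2 arrays were fitted with limma 3.58.1 in R 4.3.3 (5 group means, eBayes with trend), two-sided, and adjusted by Benjamini-Hochberg over all 3 types. The procedure was tested on simulated data with independent noise, in which Norm arrays varied as the others did. These data held no run effect and no shift in the 3' to 5' ratio, so the test does not cover them. Gene symbols came from the platform annotation, and a list gene was represented by 1 probe set, a plain one before suffixed ones, then the brightest relative to its type. Named were all members, the 3 genes per pathway list with the smallest p over the 4 times, list genes that passed and the 3 genes most like each member; Epo, Itga2b, Gp1bb, Pvalb and the lung markers were named after their values were seen. Members and lists were chosen with earlier results of these data known, and the lists of other cells are markers only. Samples 1a and 1b of different groups share only a letter. The number of arrays limits the precision.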

Additional observations from a re-analysis of the deposited data

How the results depend on the processing

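Under each alternative tried, 0 members passed at 10 h, 4 d, 6 d, in the mean of low oxygen, from early to late and within runs. At 2 d against Norm the count was 1, Bpgm on B, with log2(intensity + 100) in place of the floor (adjusted p = 0.0455), with a filter of 5 arrays over the floor (0.0406) and with adjustment within an array type (adjusted p = 0.0360). It ranged from 0 to 1 when 1 sample at a time was left out, 1 being the fit without Norm 1a, and it was 3 for 2 d against the other times. For that comparison it was 1 with no filter on dim probe sets and with adjustment within an array type, 2 with the replicate block, and 0 to 3 with 1 sample left out. In the same comparison neither Slc4a1 on A nor Ank1 170194_at passed without the filter or with adjustment within an array type. The Ank1 170194_at call was also lost under median scaling (limma adjusted p = 0.0517). It was lost as well with the floor at the 20th percentile (0.0974) and with log2(intensity + 100) (0.0605). Without Norm 1b no A probe set could be set against Norm, which left 5 of the 14.

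With the letter as a replicate block the count at 2 d was 0 (Bpgm on B 0.93, adjusted p = 0.0801; Slc4a1 on A 1.65, adjusted p = 0.117), and correlations of 1a minus 1b between groups lay between -0.158 and 0.134. The block changed no call among the 14 in the 8 comparisons; over all probe sets it gave 217 calls at 2 d against Norm, in place of 480, and 2 for 6 d against 2 d, in place of 16. For the 25 differences followed, 515 values under 23 alternatives held 9 turns of sign. At 2 d, Epb42 turned to -0.20 with the floor at the 20th percentile and -0.049 with log2(intensity + 100), Ank1 100439_i_at to -0.082 with the replicate block and Klf1 to 0.24 against the other times. With 1 sample left out, Ank1 100440_f_at ranged from -0.25 to 0.54, Klf1 from -0.61 to 0.023 and Epb42 from -0.011 to 0.65. The mean over the 4 tested Ank1 probe sets was -0.15 at 6 d and -0.071 from early to late. The cause of these turns was not tested. The count over all probe sets at 2 d, 480, ranged from 0 (2 d and Norm arrays alone) to 733 (adjustment within an array type), and was 23, 21, 15 and 13 without 10 h 1a, 10 h 1b, 6 d 1a and 6 d 1b. Over all alternatives the corresponding counts were 0 to 21 at 10 h, 0 to 20 at 4 d, 0 to 12 at 6 d, 0 to 37 for the mean of low oxygen, 0 to 20 from early to late, 0 to 189 for 4 d against 10 h and 0 to 91 for 6 d against 2 d.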
